A study of Mus musculus with 4 samples.

Results

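The genes described here handle zinc inside macrophages: metallothioneins 1 and 2 (Mt1 and Mt2), the transcription factor Mtf1, and the zinc transporters Slc30a1, Slc30a4, Slc39a1, Slc39a8 and Slc39a14. They were chosen by name, as the rows of the deposited gene table with these mouse symbols on primary chromosomes. All 8 were found among 32617 genes, and all 8 passed the filter on low counts.

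The table holds mRNA sequencing of mouse blood-derived macrophages, with 4 libraries in 3 groups. All cells were CD11b-selected blood monocytes of mice aged 10 to 16 weeks, pooled from 60 animals in the series, and were kept for 6 or 7 days with M-CSF at 30 ng/ml, the growth factor that turns monocytes into macrophages. M-CSF macrophages (1 library) were left unstimulated. A second library, of classically activated macrophages (CAM), had also received LPS at 500 ng/ml, a component of the bacterial outer membrane, and IFNγ at 20 ng/ml, a T and NK cell cytokine. Peptide-treated CAM (2 libraries, called peptide libraries 1 and 2) had in addition been given mML56, a peptide of Ninj1 residues that mimics the soluble form of this cell-surface adhesion protein; its dose is not given in the sources used here. The strain is labelled C57BL/6J for M-CSF and CAM and C57BL/7J for the peptide samples, while the growth protocol names C57BL/6J for all. In the deposited table the M-CSF column carries the number 2 and the CAM column the number 1, which no label explains. M-CSF and CAM had 1 library each, so the p-values rest on the spread of the peptide pair, moderated by the spread of all tested genes. No label says that the libraries came from separate cultures, so that spread may be technical.

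Zinc is kept at a very low free concentration in cells. Metallothioneins are small cysteine-rich proteins that bind zinc and copper. MTF-1, the protein of Mtf1, senses free zinc and switches on Mt1, Mt2 and Slc30a1 through metal response elements in their promoters. Transporters of the ZnT family (Slc30a genes) move zinc out of the cytosol, across the plasma membrane or into vesicles, and those of the ZIP family (Slc39a genes) move it in. Activated macrophages are known to shift zinc between these stores, which bears on their defence against microbes.

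Estimated counts totalled 10334062 (CAM) to 12842750 (peptide library 1) per library. CAM also had the fewest genes with counts, 14772, against 17446 in M-CSF and 16653 and 16916 in peptide libraries 1 and 2. The part of this in genes at or near 0 in CAM was not tested. Scaling factors by the trimmed mean of M-values (TMM) ran from 0.894 to 1.24, and levels are given below as CPM, the count per 1000000 counts of the scaled library size. Folds are reported on the log2 scale from edgeR's quasi-likelihood test with Benjamini-Hochberg adjustment over 14104 genes and a threshold of 0.05, with a standard error (SE) or a 95% interval. Since M-CSF and CAM had 1 library each, the test took its spread from the peptide pair, moderated across all tested genes. All 7 macrophage markers looked for were present. Their summed level was 22200 CPM in M-CSF and 6870 in CAM, with peptide libraries 1 and 2 at 5330 and 4490, most of it from lysozyme (Lyz2). In CAM 3 of the 7 rose, Adgre1 (log2 1.26), Itgam (1.92) and Fcgr1 (2.39), and 3 fell, Csf1r (-2.61), Cd68 (-3.48) and Lyz2 (-2.2). The median log2 fold change of the 7 was 0.41 (-0.07 with library size as the only scaling). Cd68, a lysosomal membrane protein of macrophages and among those that fell, was at 13.4 CPM in M-CSF, 1.19 in CAM and 35.9 ± 4.33 with the peptide (SD, n = 2). Summed markers of neutrophils stayed between 10.5 and 19.3 CPM (3 of 6 at 0 in all libraries, S100a9, Ly6g and Elane), of B cells between 1.20 and 2.40, of T and NK cells between 5.24 and 8.66 (Cd3e at 0) and of red cells between 0.258 and 2.27 (Hba-a1 at 0). The summed platelet markers went from 77.3 CPM in M-CSF to 5.41 in CAM, with peptide libraries 1 and 2 at 13.4 and 11.5. The fall in CAM came mainly from 1 gene, the chemokine Pf4 (log2 -5.17). Itga2b did not pass the threshold (log2 0.14), and Ppbp and Gp9 were too low to be tested. A loss of platelets can therefore not be read from this sum, and the part of platelets in the results was not tested. In bulk libraries fewer cells of a type and less RNA per cell cannot be told apart.

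The first question was how activation by LPS and IFNγ altered zinc handling, from CAM set against M-CSF macrophages. Both metallothioneins, Mtf1 and the exporter genes Slc30a1 and Slc30a4 were higher in CAM, and the importer gene Slc39a8 was lower. Of the 8 genes, 5 rose and 1 fell, while Slc39a1 and Slc39a14 did not pass the threshold. Slc30a4, at 0 counts in M-CSF, could pass the filter on low counts only through the activated libraries. Its rise among the 5 is therefore not independent of the filter. Over all tested genes 21.4% rose and 23% fell, 44.4% in either direction. Of all calls 48.2% were higher, and 28.6% with library size as the only scaling. The median log2 fold change of the 8 was 1.03, against -0.07 over all genes. It was 1.03 as well with Slc30a4 set to a floor of 3 counts in M-CSF. With library size as the only scaling, which moved the median of all genes by -0.48, Slc30a1 no longer passed (log2 fold change 0.47, adjusted p = 0.0835) and 4 genes rose.

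**Figure D1:**
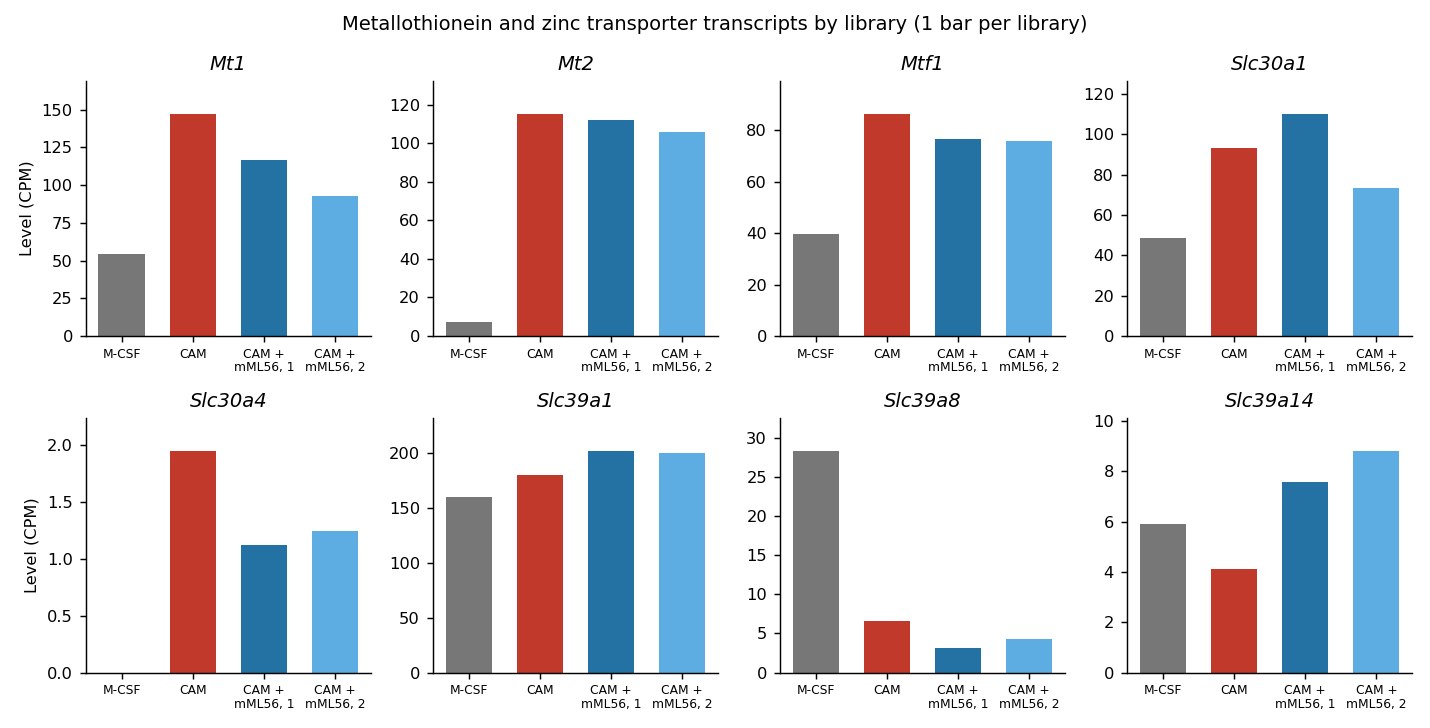
Level of each gene in CPM (vertical axes from 0, each panel with its own scale) in the 4 libraries, 1 bar per library. Mt2 stands at 7.45 CPM in M-CSF and at 106 to 115 CPM in the activated libraries, while Slc39a8 stands at 28.3 CPM in M-CSF and at 3.10 to 6.60 CPM in the others.

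The metallothionein genes lie side by side on chromosome 8, and their upstream sequence is shown because metal response elements are known to sit there. In mm10, Mt2 (ENSMUSG00000031762) runs from 94172664 to 94173568 and Mt1 (ENSMUSG00000031765) from 94179082 to 94180327, both on the plus strand, with RefSeq starts 6471 bases apart. The 250 bases before each start and the first 30 bases after it come from RefSeq on GRCm38.p6 (mm10), plus strand. They lie at chr8:94178839-94179088 and chr8:94179089-94179118 for Mt1, and at chr8:94172368-94172617 and chr8:94172618-94172647 for Mt2. Capitals mark matches to the metal response element core, TGCACNC or TGCGCNC, on either strand.
Mt1 before the start: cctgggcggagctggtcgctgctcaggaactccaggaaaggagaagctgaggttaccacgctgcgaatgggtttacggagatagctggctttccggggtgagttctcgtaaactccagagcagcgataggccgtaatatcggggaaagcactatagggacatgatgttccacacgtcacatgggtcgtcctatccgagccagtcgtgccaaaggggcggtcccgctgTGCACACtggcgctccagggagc
Mt1 after the start: tcTGCACTCcgcccgaaaagTGCGCTCggc
Mt2 before the start: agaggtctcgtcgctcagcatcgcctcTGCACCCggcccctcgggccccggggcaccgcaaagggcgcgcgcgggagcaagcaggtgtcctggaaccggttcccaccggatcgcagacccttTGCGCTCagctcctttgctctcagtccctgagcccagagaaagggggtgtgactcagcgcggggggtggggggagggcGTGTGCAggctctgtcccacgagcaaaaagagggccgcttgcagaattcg
Mt2 after the start: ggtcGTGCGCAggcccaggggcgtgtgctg
The window searched was 300 bases, 250 before and 50 after the start. Mt1 held 3 matches, whose first bases lay 23 bases before the start and at bases 3 and 21 after it. Mt2 held 4, beginning 223, 128 and 50 bases before the start and at base 5 after it. Of 32851 mouse promoter windows 25.7% held at least 1 match, 1.97% at least 3 and 0.517% at least 4. GENCODE M21 also lists Mt1 transcripts that start 122 and 152 bases further on, and its Mt2 transcripts start 46 and 242 bases further on. The sequence before the starts at 122, 152 and 242 bases lies partly outside the window. The bases printed after the Mt2 start lie before both GENCODE Mt2 starts. All positions given here count from the RefSeq starts.

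Mt2 had the steepest rise of the 7 genes that were counted in every library. It reached 7.45 CPM in the M-CSF library (115 counts) and 115 CPM in CAM (1058 counts), with peptide libraries 1 and 2 at 112 and 106 CPM. All 3 activated libraries lay far above M-CSF and close to each other. The fold between CAM and M-CSF was 15.4 (log2 fold change 3.94, SE 0.224, adjusted p = 2e-08). Mt1 reached 54.6 CPM in the M-CSF library and 147 in CAM, with peptide libraries 1 and 2 at 117 and 93.0. Its rise in CAM was 2.70-fold (log2 1.43, SE 0.214, adjusted p = 0.000122). Both rises stayed past the threshold under each alternative that gave a test, and over all 8 alternatives the log2 values were 0.96 to 1.63 for Mt1 and 3.46 to 4.26 for Mt2. Leaving out a peptide library gave values only.

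The make-up of the metallothionein pair differed between M-CSF and the activated libraries. Mt1 and Mt2 together reached 62.1 CPM in the M-CSF library and 262 in CAM, with peptide libraries 1 and 2 at 229 and 199. Mt2 gave 12% of their joint counts in M-CSF (95% exact binomial interval 10% to 14.2%), 43.7% in CAM (41.7% to 45.7%), and 48.8% (46.9% to 50.7%) and 53.2% (51.2% to 55.2%) in peptide libraries 1 and 2. The intervals cover counting error only. Both peptide libraries lay above CAM in this share, and the gap between them was about as wide as that between CAM and library 1. In the sense direction Mt1 shared no 31-base word with the transcripts of any other gene. Mt2 shared 3 of 573 (0.524%), all with Pip5k1a. Sense reads of the pair can thus be told apart at that word length. Words in the reverse direction were not compared, so sharing with the antisense gene Gm45774 at Mt2 is not covered. Their transcripts are short, at 549 and 511 bases. The 544 tested protein-coding genes of 450 to 600 bases had a median log2 fold change of -0.40 between CAM and M-CSF (quartiles -1.51 and 0.86), and the part of transcript length in the metallothionein values was not tested. Mt3 and Mt4, the metallothioneins of brain and stratified epithelium, were at 0 in all 4 libraries.

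**Figure D2:**
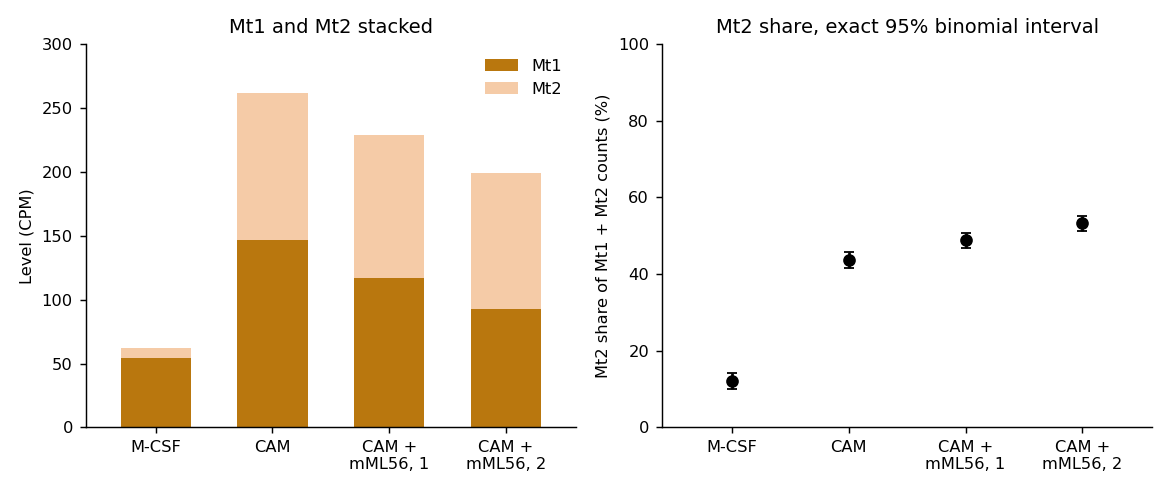
Left, levels of Mt1 and Mt2 in CPM, stacked, in the 4 libraries. Right, the Mt2 share of the joint counts in percent, with exact 95% binomial intervals, which cover counting error only; it is 12% in M-CSF and 43.7% to 53.2% in the activated libraries.

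Mtf1, which encodes the zinc sensor, rose in CAM. It is on chromosome 4 (ENSMUSG00000028890, 124802104 to 124849800) and reached 39.7 CPM in the M-CSF library and 86.3 in CAM, with peptide libraries 1 and 2 at 76.7 and 75.9. The activated libraries were close together and all above M-CSF. The fold in CAM was 2.17 (log2 1.12, SE 0.197, adjusted p = 0.000463). No metal response element core was found in the window at the start of Mtf1, which says only that these letters are not in that window.

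Slc30a1 encodes ZnT1, the zinc exporter of the plasma membrane and a known target of MTF-1. It is on chromosome 1 (ENSMUSG00000037434, 191906767 to 191913247). It reached 48.5 CPM in the M-CSF library and 93.2 in CAM, with peptide libraries 1 and 2 at 110 and 73.6. CAM lay between the peptide libraries, and all 3 were above M-CSF. The rise in CAM was 1.92-fold (log2 0.94, SE 0.252, adjusted p = 0.00843). Its upstream 250 bases are shown because they carry a core match, in capitals, on the reverse strand (RefSeq, GRCm38.p6, chr1:191906531-191906780, plus strand).
Slc30a1 before the start: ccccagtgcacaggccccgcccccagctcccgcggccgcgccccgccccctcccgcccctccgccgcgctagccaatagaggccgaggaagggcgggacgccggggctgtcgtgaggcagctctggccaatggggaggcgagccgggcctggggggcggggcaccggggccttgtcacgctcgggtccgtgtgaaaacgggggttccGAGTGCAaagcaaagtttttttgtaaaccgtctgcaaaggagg
A further reverse match began at base 31 after the start, which gave Slc30a1 2 matches in its window. GENCODE M21 also lists a Slc30a1 transcript that starts 475 bases further on, and the 250 bases before that start were not searched.

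Slc30a4 encodes ZnT4, which loads zinc into vesicles. It is on chromosome 2 (ENSMUSG00000005802, 122681233 to 122702663) and was near the limit of detection. It was listed at 0 in M-CSF, and had 18 counts in CAM, with peptide libraries 1 and 2 at 13 and 15 (1.95, 1.12 and 1.25 CPM). With the M-CSF library set to 3 counts, the level was 10-fold higher in CAM. It was 5.75-fold and 6.41-fold higher in peptide libraries 1 and 2. These folds leave out counting error and are not lower bounds. By Poisson intervals, counting error allowed 0 to 3.69 counts in M-CSF and 10.7 to 28.4 in CAM. With M-CSF at its listed 0, the rise in CAM passed in edgeR (adjusted p = 0.00289) and narrowly in DESeq2's Wald test (0.0465). A gene may be listed at 0 because its estimate failed, so absence from M-CSF cells cannot be read from the listed 0. The window at its start held 3 core matches, all on the reverse strand.

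Slc39a8 encodes ZIP8, an importer of zinc and manganese at the plasma membrane and the lysosome, and was the only one of the 8 that fell. It is on chromosome 3 (ENSMUSG00000053897, 135825279 to 135888572). It reached 28.3 CPM in the M-CSF library (437 counts) and 6.60 in CAM (61 counts), with peptide libraries 1 and 2 at 3.10 and 4.32 (36 and 52 counts). M-CSF was above every activated library. The level in CAM was 4.28-fold lower (log2 fold change -2.10, SE 0.362, adjusted p = 0.000394). Of its RefSeq starts, the upstream one had no core match and the downstream one had 1.

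Slc39a1 and Slc39a14 did not pass the threshold. Slc39a1, the gene of the widely expressed surface importer ZIP1 (ENSMUSG00000052310, chromosome 3, 90248172 to 90253612), reached 160 CPM in the M-CSF library and 180 in CAM, with peptide libraries 1 and 2 at 202 and 200. The log2 difference between CAM and M-CSF was 0.16 (95% interval -0.24 to 0.57, edgeR adjusted p = 0.5), and -0.31 with library size as the only scaling. Of its 31-base words 26.4% also occur in the pseudogene Slc39a1-ps, which was listed at 0 in all libraries, so its counts are uncertain. Slc39a14 encodes ZIP14, an importer of zinc, iron and manganese that IL-6 induces in liver (ENSMUSG00000022094, chromosome 14, 70303469 to 70351425). It reached 5.89 CPM in the M-CSF library (91 counts) and 4.11 in CAM (38 counts), with peptide libraries 1 and 2 at 7.57 and 8.81 (88 and 106 counts). CAM was the lowest of the 4. Between CAM and M-CSF the log2 difference was -0.52 (95% interval -1.45 to 0.41, edgeR adjusted p = 0.348).

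**Figure D3:**
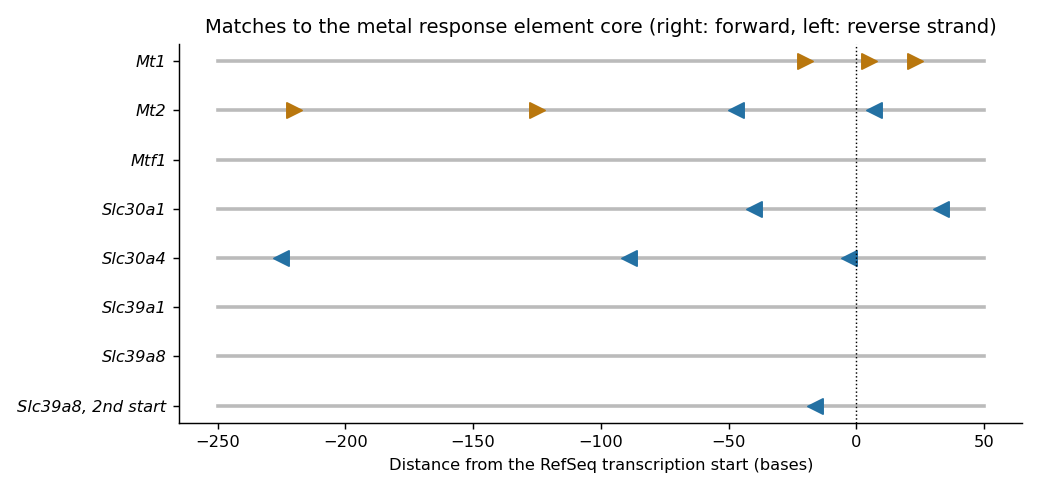
Matches to the metal response element core in windows from 250 bases before to 50 bases after RefSeq starts (horizontal axis, bases from the start); triangles point right for the forward and left for the reverse strand. Mt1 holds 3 matches, Mt2 4, Slc30a4 3 and Slc30a1 2, and the windows of Mtf1, Slc39a1 and the first Slc39a8 start hold none.

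The RefSeq table held 8 starts for 7 of the 8 genes, Slc39a14 being without an entry. Of the 7 genes 5 had at least 1 core match, Slc39a8 only at its downstream start. Of all windows, counted per start and not per gene, 25.7% had at least 1. Mt1, Mt2 and Slc30a1 are known targets of MTF-1 through such elements, so the count of genes is a description and no test. The part of GC content in the matches was not tested. Among the other motifs searched on both strands, the STAT motif TTCNNNGAA (8.3% of all windows) was found in none of the 8 windows. The antioxidant response element core TGACNNNGC (12.4% of windows) was found once each for Mt2, Slc30a1, Slc39a1 and the upstream start of Slc39a8. The NF-kB motif (4.51% of windows) was found at 1 place, after the start of Slc39a1, where the letters match on both strands. A match is a description of letters and not of binding.

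Levels of different genes were compared per kilobase of the transcript length in the deposited table, as CPM per kilobase. In M-CSF the order was Mt1 (99.5 CPM per kilobase), Slc39a1 (67.8), Mt2 (14.6), Slc30a1 (9.25), Slc39a8 (8.54), Mtf1 (5.26), Slc39a14 (2.81) and Slc30a4 at 0. In CAM the metallothioneins led, Mt1 at 268 and Mt2 at 224 CPM per kilobase, ahead of Slc39a1 at 76.0, Slc30a1 at 17.8 and Mtf1 at 11.4. Slc39a8 (1.99) and Slc39a14 (1.96) were level there, above Slc30a4 (0.615). In peptide library 1 Mt2 and Mt1 were close, at 219 and 214 CPM per kilobase, and in peptide library 2 Mt2 was at 207 and Mt1 at 169. Slc39a14 (3.61 and 4.20) was above Slc39a8 (0.934 and 1.3) in both peptide libraries.

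The second question was how mML56 altered activated cells. Of the 8 zinc genes 1, Mt1, fell and none rose, where 37.7% of all tested genes passed the threshold, 20.6% higher and 17.1% lower. The median log2 fold change of the 8 was -0.13, against 0.05 over all genes. This comparison shares the CAM library with the one before it, so a deviation of that library would enter both in opposite directions.

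Mt1 averaged 105 ± 17.3 CPM with the peptide (SD, n = 2) against 147 CPM in CAM, and was lower in both peptide libraries. The log2 fold change was -0.49 (SE 0.178, edgeR adjusted p = 0.0466), close to the threshold. It lost the call with median-of-ratios size factors (adjusted p = 0.0571), without a filter on low counts (0.113) and with DESeq2's Wald test (0.238); adjusted p ran from 0.000356 to 0.238 over the alternatives. Taking peptide library 1 or 2 alone, the log2 fold change was -0.29 or -0.67. Mt2 stood at 109 ± 4.48 CPM (SD, n = 2) against 115 in CAM, a log2 difference of -0.07 (95% interval -0.43 to 0.28, edgeR adjusted p = 0.749). With an offset for transcript length and GC content, both metallothioneins passed, Mt1 at -0.85 (adjusted p = 0.000356) and Mt2 at -0.56 (adjusted p = 0.0253). Tested protein-coding genes of 450 to 600 bases had a median log2 fold change of 0.25 in this comparison (quartiles -0.63 and 1.16), against 0.05 over all genes.

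The transporter genes gave no call against CAM. Slc39a14 was higher in both peptide libraries, at 8.19 ± 0.878 CPM (SD, n = 2) against 4.11 in CAM, a log2 difference of 0.99 (95% interval 0.16 to 1.82) that missed the threshold (edgeR adjusted p = 0.0584). It passed with median-of-ratios size factors (0.0398) and with the M-CSF library left out of the fit (0.0339), and adjusted p ran from 0.0339 to 0.451 over the alternatives. Slc39a8 was lower in both, at 3.71 ± 0.867 CPM (SD, n = 2) against 6.60, a log2 difference of -0.83 (95% interval -1.55 to -0.10, edgeR adjusted p = 0.0682). It passed only with median-of-ratios size factors (0.0463), and adjusted p ran from 0.0463 to 0.446. Both rest on fewer than 110 counts per activated library. For the others the 95% intervals of the log2 difference were -0.54 to 0.18 for Mtf1, -0.49 to 0.44 for Slc30a1, -2.35 to 0.92 for Slc30a4 and -0.19 to 0.51 for Slc39a1. These intervals do not show that the levels were alike, and the one for Slc30a4, at 13 to 18 counts per activated library, is the widest.

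Peptide-treated CAM were also set against M-CSF macrophages. In this comparison 5 of the 8 genes rose and 1 fell, against 22.1% and 19% of all tested genes, 41.2% in either direction, with a median log2 fold change of 0.93 against -0.08. Of all calls 53.8% were higher, 33.2% with library size as the only scaling and 64.8% with DESeq2. Mt2 was 14.6-fold higher (log2 3.87, SE 0.212, edgeR adjusted p = 1.08e-08) and Mt1 1.93-fold higher (log2 0.95, SE 0.19, adjusted p = 0.00128). Mtf1 had a log2 fold change of 0.94 (SE 0.175) and Slc30a1 of 0.92 (SE 0.224). Slc30a4, which passed the filter only through the activated libraries, rose as well (edgeR adjusted p = 0.00528), but not by DESeq2's Wald test (0.0577). Slc39a8 was 7.61-fold lower (log2 -2.93, SE 0.295, adjusted p = 3.5e-06). Slc39a1 (log2 0.33, 95% interval -0.03 to 0.68) and Slc39a14 (0.47, -0.29 to 1.24) did not pass. This comparison shares its M-CSF library with the first and its peptide libraries with the second.

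**Figure D4:**
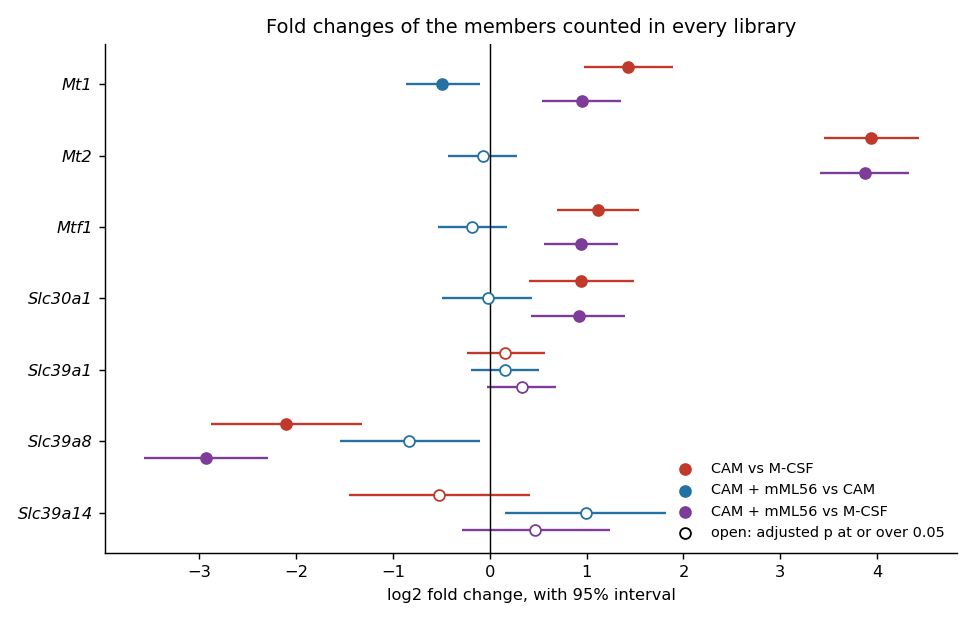
Log2 fold changes (horizontal axis) with 95% intervals for the 7 genes counted in every library, in the 3 comparisons; filled points passed an adjusted p of 0.05 and open points did not. Mt1 is the one filled point for peptide-treated CAM against CAM, at -0.49. Slc30a4 is left out because it was listed at 0 in M-CSF.

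The other genes of the ZnT and ZIP families were counted in the same way. Counts here and in the lists below stand beside these shares of all tested genes. In CAM against M-CSF 21.4% rose and 23% fell. With the peptide 20.6% rose and 17.1% fell against CAM, and 22.1% rose and 19% fell against M-CSF. No list was tested as a set. Of 8 other ZnT genes 4 were tested, and 2 rose and none fell in CAM against M-CSF (median log2 fold change 0.80, all genes -0.07). With library size as the only scaling, or with the length and GC offset, 1 rose and 1 fell. Slc30a9, a ZnT protein linked to mitochondria, went from 60.1 to 137 CPM (log2 1.19, adjusted p = 0.000228), and Slc30a7, which supplies the secretory pathway, from 68.4 to 127 CPM (log2 0.89, adjusted p = 0.0023). With the peptide Slc30a9 fell to 75.2 ± 3.79 CPM (log2 -0.87, adjusted p = 0.00115), close to its M-CSF level, though not with the offset, where none of the 4 passed. Slc30a5, also of the secretory pathway, was at 70.6 CPM in M-CSF, 51.2 in CAM and 38.5 ± 7.56 with the peptide, and was lower in peptide-treated cells than in M-CSF (log2 -0.88, adjusted p = 0.00288).

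Among 10 tested genes of 11 other ZIP importers, 4 fell and none rose in CAM against M-CSF (median -0.36). Over all tested genes 23% fell and 21.4% rose. With median-of-ratios size factors 1 of the 10 rose and 4 fell. With the offset 1 rose and 3 fell (median 0), and with library size only none rose and 6 fell (median -0.83). Slc39a10, an importer that MTF-1 represses, fell from 54.2 to 23.2 CPM (log2 -1.23, adjusted p = 0.00161), and Slc39a3 from 30.9 to 18.0 CPM (log2 -0.78, adjusted p = 0.0259). The other 2, named after their values were seen, were Slc39a2 and Slc39a12, at 4.08 and 7.84 CPM in M-CSF and listed at 0 in CAM. Slc39a10 fell further with the peptide, to 11.7 ± 0.223 CPM (log2 -0.98, adjusted p = 0.00434). Against CAM, 3 of the 10 rose with the peptide and 2 fell (2 and 2 with median-of-ratios size factors, 2 and 1 with the offset). The gains were in Slc39a7, which releases zinc from the endoplasmic reticulum and went from 25.6 to 66.3 ± 6.98 CPM (log2 1.37, adjusted p = 0.000276), in Slc39a3 (log2 0.62, adjusted p = 0.0488), and in Slc39a2, at 1.20 and 3.24 CPM. Slc39a4, the intestinal importer, fell from 12.3 to 3.44 and 1.66 CPM (log2 -2.27, adjusted p = 0.00137). The median was 0.04, or -0.22 with values listed at 0 set to a floor of 3 counts. Against M-CSF, Slc39a7 was the 1 gene that rose with the peptide, and Slc39a10, Slc39a11 and Slc39a12 fell; 2 fell with median-of-ratios size factors, and 4 with library size only or the offset.

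**Figure D5:**
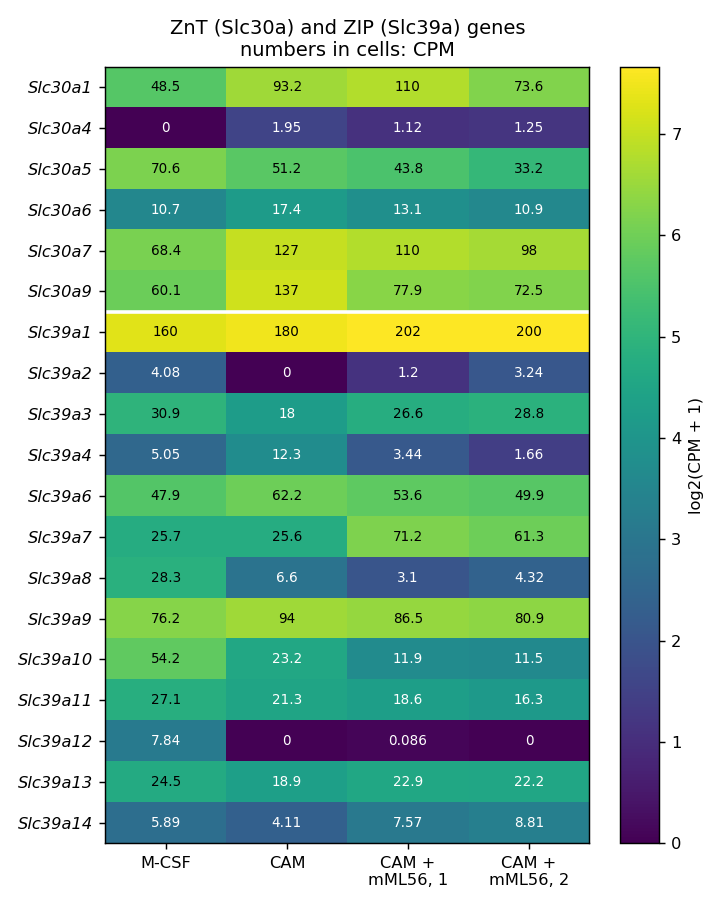
Level of the 19 tested ZnT (Slc30a, upper rows) and ZIP (Slc39a, lower rows) genes in the 4 libraries; colour is log2(CPM + 1) and the number in each cell is CPM. Slc39a7 brightens only in the peptide columns, at 71.2 and 61.3 CPM against 25.7 and 25.6, and Slc39a10 dims from 54.2 CPM in M-CSF to 11.5 in peptide library 2.

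A list of genes linked to zinc sensing, oxidative stress or MTF-1 was looked at next. Like the other lists, it was chosen with earlier results of these data known, so its count is a description and no test. All 8 genes, of glutathione synthesis, redox defence and other functions, rose in CAM (median log2 fold change 2.63), also under every scaling tried. Hmox1, the heme oxygenase, went from 331 to 3160 CPM (log2 3.25, adjusted p = 1.24e-06) and Tgm2, a transglutaminase, from 192 to 2950 CPM (log2 3.94). Hmox1, Gclc, Gclm and Txnrd1 are also known targets of the oxidative stress factor encoded by Nfe2l2. With the peptide 1 rose and 3 fell against CAM (3 and 3 with library size as the only scaling). Selenow, a small selenoprotein, rose from 39.2 to 149 ± 2.02 CPM (log2 1.93, adjusted p = 9.76e-06), while Txnrd1 (log2 -0.85), Gclc (-0.79) and Ndrg1 (-2.12) fell. Of the 8, 7 rose against M-CSF with the peptide and none fell (6 and none with either library size only or the offset).

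Among 12 tested copper handling genes, 7 rose and 3 fell in CAM against M-CSF (median 1.17), 6 and 3 with library size only or the offset. Over all tested genes 21.4% rose and 23% fell. Slc31a2, a copper transporter of endosomes, went from 48.3 to 374 CPM (log2 2.95, adjusted p = 2.2e-07), and Atp7a, the copper pump, from 79.8 to 336 CPM (log2 2.07, adjusted p = 2.24e-06). Sco1, a copper chaperone of cytochrome oxidase, rose too (log2 2.16). Steap3, a metalloreductase, fell (log2 -3.13), as did the copper chaperones Ccs (-1.81) and Atox1 (-1.54). With the peptide 3 rose and 3 fell against CAM, where 20.6% and 17.1% of all tested genes did. The counts were 4 and 3 with library size only and 3 and 2 under the offset. Steap3 (log2 2.23), Atox1 (1.32) and Cp, the copper oxidase ceruloplasmin (0.93), rose, and Atp7a fell to 193 ± 11.5 CPM (-0.80, adjusted p = 0.00194). Against M-CSF 6 rose and 3 fell with the peptide (5 and 4 with library size only).

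Manganese and iron transporters numbered 7, of which 2 rose and 1 fell in CAM, where 21.4% and 23% of all tested genes did. The counts were 1 and 1 with library size as the only scaling, and 3 and 1 with the offset. Slc11a1 (NRAMP1) stood at 489 CPM in M-CSF, 766 in CAM and 1650 ± 54.4 with the peptide. With TMM it rose at both steps (edgeR, log2 0.65, adjusted p = 0.0265, then 1.10, adjusted p = 0.000862). The size of the first step depends on the scaling, and its call may not hold under library size only. That scaling moved the median of all genes there by -0.48. It left 1 of the 7 rising, with a median log2 fold change of the 7 of 0.17. Slc11a2 (DMT1) rose in CAM (log2 1.67), and Slc40a1, the iron exporter ferroportin, fell from 102 to 8.12 CPM (log2 -3.64, adjusted p = 7.43e-07). With the peptide 1 of the 7 rose and 3 fell against CAM, and 3 rose and 2 fell against M-CSF (2 and 2 with library size only and 3 and 3 under the offset). Trf, the iron carrier transferrin, was among those lower than in CAM (log2 -1.26). Of the zinc-binding antimicrobial pair, S100a9 was at 0 in all libraries. S100a8 was at 0.259 CPM in M-CSF, 5.63 in CAM, and 2.49 and 4.74 with the peptide, and rose against M-CSF in both comparisons; it was named after its values were seen.

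A pair of signal routes known to act on these genes were listed, the IL-6 route for Slc39a14 and the metallothioneins and the glucocorticoid route for the metallothioneins. Of 8 IL-6 and STAT3 genes 4 rose and 2 fell in CAM (median 0.57). Il6 went from 0.0648 CPM, a single count, to 91.7 in CAM and back to 7.36 ± 0.656 with the peptide (log2 -3.64 against CAM, adjusted p = 4.69e-07). Socs3, the feedback inhibitor, rose from 2.92 to 699 CPM and further to 1480 ± 58.1 (log2 1.08, adjusted p = 0.000814). Osm (log2 1.65), a cytokine of the IL-6 family, and Bcl3 (0.86), a regulator of NF-kB, also rose with the peptide. Stat3 rose (log2 1.93) and the receptor gene Il6ra fell (-2.11) in CAM. With the peptide 4 rose and 1 fell against CAM (3 and 1 with the offset), and 5 rose and 2 fell against M-CSF (5 and 1 with median-of-ratios size factors or with the offset). Of 7 glucocorticoid-induced genes 1 rose and 3 fell in CAM, 2 and 3 with the offset. Dusp1, a phosphatase that LPS also induces, rose (log2 3.91), and Klf9 fell from 13 to 4 CPM (log2 -1.69, adjusted p = 0.0021). With the peptide Klf9 (log2 1.60), Per1 (1.62) and Dusp1 (0.73) rose and Sgk1 fell (-1.86), while 2 rose and 1 fell with the offset. Against M-CSF 2 rose and 2 fell, or 2 and 3 under each other scaling and with the offset.

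The genes whose levels over the 4 libraries were most like those of 4 of the zinc genes were found by the root mean square difference of log2 CPM, each gene centred on its own mean, among at least 6994 genes at a mean of 10 CPM or more. For Mt2 they were Maff, a small Maf transcription factor, at 0.015, and Gpr18 at 0.062. Maff reached 1.62 CPM in the M-CSF library and 26.0 in CAM, with peptide libraries 1 and 2 at 25.9 and 24.2. For Mt1 they were Seh1l (0.018), a nuclear pore protein, and Mcoln2 (0.019), a cation channel of endosomes and lysosomes. For Slc39a8 they were Dgkd (0.093) and Tlr7 (0.096), the endosomal RNA sensor, at 229 CPM in M-CSF, 46.8 in CAM, and 22.1 and 30.9 with the peptide. For Slc39a14 they were Rpusd1 (0.039) and Tctn1 (0.04). Only likeness of level over 4 libraries is meant.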

How the data were processed

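Blood macrophage mRNA libraries were made with a directional kit, per the labels' protocols. Values deposited by the authors are estimated counts, 1 per gene and library, with no scaling. The submitters' processing notes name mm10, kallisto and StringTie, in no stated order. The sources used here do not give the strand setting or the annotation release. Antisense partners (Gm45774 at Mt2, 1110065P20Rik at Mtf1, and others at Slc30a1, Slc30a4 and Slc39a8) could therefore share reads. The deposited table also gives 1 transcript length per gene; this other column was used to scale levels per kilobase.

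Counts were rounded, filtered with filterByExpr and tested with edgeR 4.0.16 in R 4.3.3 (TMM, glmQLFit, glmQLFTest; prior count 0.125; 1 residual degree of freedom, prior degrees of freedom 11.8), all 4 libraries in 3 groups with no covariate. The spread of the single M-CSF and CAM libraries was taken to equal that of the peptide pair. Samples were grouped by title; the column of peptide library 2 matches its group, not a numbered label. Alternatives were size factors by median of ratios, library size only, no filter, prior count 2, a smooth offset for transcript length and GC content (GENCODE M21, 98.7% of genes), fewer groups, leaving out a peptide library, and DESeq2 1.42.0. The code was checked on simulated data.

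Genes outside the 8 were named by rule: up to 3 per list, comparison and direction past the threshold whose highest library reached 10 CPM, and the 2 closest profiles. Members and lists were chosen with earlier results of these data known.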

Additional observations from a re-analysis of the deposited data

How the results depend on the processing

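For CAM against M-CSF, 5 or 6 of the 8 genes passed under every alternative tested, and likewise for peptide-treated CAM against M-CSF. For peptide-treated CAM against CAM, 1 passed as reported, 2 with median-of-ratios size factors, 2 with the length and GC offset, 2 with the M-CSF library left out, 0 without a filter on low counts (edgeR, 3 at an unadjusted p under 0.05) and 0 with DESeq2's Wald test (0 at an unadjusted p under 0.05). DESeq2 called 3437, 2346 and 3252 genes in CAM against M-CSF, peptide against CAM and peptide against M-CSF, where edgeR called 6269, 5320 and 5804. With library size only, 28.6% of edgeR's calls for CAM against M-CSF were higher, against 48.2% with TMM; for peptide against M-CSF the splits were 33.2% and 53.8%, and 64.8% with DESeq2.

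No value that passed the threshold in the fit as reported changed sign. Among values that did not pass it, the sign flipped for Slc39a1 with library size only (-0.31 for CAM and -0.06 for peptide-treated CAM against M-CSF) and with the offset (-0.18 against CAM), and, for peptide against CAM, for Mt2 (0.01) and Slc30a1 (0.05) with library size only, Mt2 (0.01) and Slc30a1 (0.27) without peptide library 2, Slc30a1 without a filter (0.00), with the M-CSF library left out (0.01) and with the offset (0.29), and Mtf1 with the offset (0.06). Mt2 against CAM passed with the offset, at -0.56. The cause was not tested. No paired analysis was possible because 2 of the groups have 1 library each and share fewer than 2 numbers with the peptide libraries; the numbers 2 and 1 of the M-CSF and CAM columns are unexplained in the labels. Leaving out a peptide library leaves no residual degrees of freedom, so it gave values only. Counts under 110 per library limit Slc39a8, Slc39a14 and Slc30a4 in the activated cells.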
